A study of Mus with 21 samples.

Results

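The comparison of 8.4/aFGF with 7.4/aFGF set a weakly alkaline against a neutral hydrogel in skin wounds of mice, both loaded with acidic fibroblast growth factor (aFGF). It took in 6 of the 21 RNA sequencing libraries of the series, 3 from each group, which were chosen by their labels and not by any measured value, and it covered all 18806 genes of the deposited files. The animals were wild-type C57BL/6 mice, which the study's methods give as female and 8 weeks old, with circular full-thickness wounds of 8 mm diameter on both sides of the back. Every wound of the 6 libraries had been treated for 4 days with gelatin methacryloyl (GelMA), a light-cured gelatin gel that carried aFGF, and the labels of the groups differ only in the pH of the gel (8.4 or 7.4), which the study set with hydrochloric acid and sodium bicarbonate. Wounds of the same age labelled control and with the same gels loaded with basic fibroblast growth factor (bFGF) are given where a value is read against them. A gel without growth factor was not analysed here, so that an effect of the pH on the tissue cannot be told apart from an effect on the delivered aFGF. The labels number the libraries as biological replicates and the series design gives 21 mice in 7 groups. That 1 mouse stands behind each library is inferred from this and is not stated by the labels.

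Acidic FGF, encoded by Fgf1, is a secreted, heparin-binding ligand that activates FGF receptor tyrosine kinases and, through them, the Ras and ERK cascade, and it is known to drive migration and growth of fibroblasts, endothelial cells and keratinocytes in healing skin. Wounds of this age hold many neutrophils and macrophages while new tissue begins to form. Interferons, made by T cells, NK cells and many infected or stressed cells, signal through JAK kinases and transcription factors of the STAT family. They induce large GTPases of the Gbp and Irg families, antigen presentation genes and the chemokines Cxcl9 and Cxcl10, which attract T cells. All libraries are of bulk tissue, in which fewer cells of a type and less RNA per cell cannot be told apart.

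The 6 libraries held 35787730 to 37032127 counts each, so that the upper limit that a count of 0 allows, 3 counts, was 0.0810 to 0.0838 CPM (counts scaled to a common library size). Skin was plain in all of them: the basal keratinocyte keratin Krt14 lay between 1325 and 2858 CPM, Krt5 between 611 and 1120 CPM, the pan-leukocyte gene Ptprc between 292 and 654 CPM and the endothelial gene Pecam1 between 214 and 267 CPM. The groups did not separate as wholes. Pearson's r of log2 CPM was 0.9631 to 0.9809 between libraries of the same group and 0.9613 to 0.9841 between groups, and the highest value joined 8.4/aFGF replicate 2 with 7.4/aFGF replicate 2.

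Certain libraries stood apart in genes of other tissues. In 8.4/aFGF replicate 2, 28 genes lay over 0.5 CPM and more than 8 times above every other library of the series, and 12 of them passed the filter on low counts. They were led by liver genes: Alb, the serum albumin gene, stood at 138 CPM in this library against 1.65 to 13.8 CPM in the other 5, and Ttr, the thyroid hormone carrier transthyretin, at 23.0 CPM against 0.0275 to 1.43 CPM. Of 34 liver genes in the files, 25 were highest of all 21 libraries there, and the 25 liver genes with a median under 1 CPM summed to 229.6 CPM, against 5.42 to 41.3 CPM in the other 5 libraries. In 7.4/aFGF replicate 3, 24 genes stood apart in the same way, of which 7 passed the filter. Here cartilage and bone genes led, with the cartilage collagen Col2a1 at 200.1 CPM against 0 to 0.189 CPM elsewhere among the 6, the cartilage proteoglycan Acan at 53.3 CPM against 0.0554 to 0.865 CPM, and the growth plate collagen Col10a1 at 60.4 CPM. Of 31 cartilage and bone genes, 20 were highest of all 21 libraries in that library, as were 10 of 11 genes of granulocyte precursors in bone marrow, among them the myeloperoxidase gene Mpo at 22.3 CPM. The other 4 libraries held no gene that stood apart by this rule. The effect of these tissues on other genes was not tested. For many of the gene lists below the count or the median is therefore also given without both libraries. Where it is not given, a list may still have moved.

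**Figure D1:**
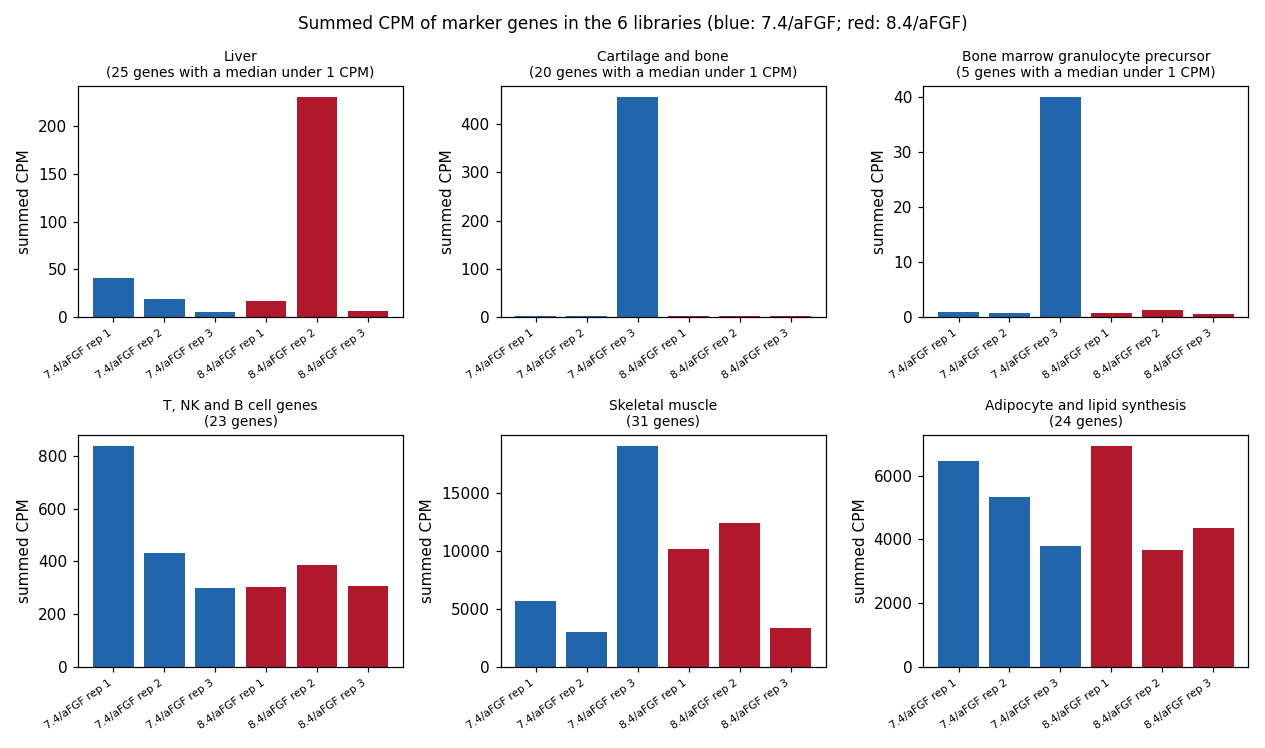
Summed CPM (vertical axis, linear, from 0) of marker genes in each of the 6 libraries, blue for 7.4/aFGF and red for 8.4/aFGF; for liver, cartilage and bone marrow only genes with a median under 1 CPM over the 21 libraries are summed. The liver sum peaked in 8.4/aFGF replicate 2 at 229.6 CPM and the cartilage sum in 7.4/aFGF replicate 3 at 455.7 CPM, while the lymphocyte sum was highest in 7.4/aFGF replicate 1 at 837 CPM.

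Across all genes no difference passed the test. Every fold change below compares 3 with 3 libraries. After the filter on low counts, edgeR's quasi-likelihood test compared 14968 genes and called 0 of them at a Benjamini-Hochberg adjusted p under 0.05 with a log2 fold change beyond 0.58, which is 0% of the genes tested, and the smallest adjusted p was 0.9999. At an unadjusted p under 0.05 there were 450 genes, fewer than the 748.4 that a threshold of 0.05 gives by itself when no gene differs. Of these, 332 were lower in 8.4/aFGF (2.22% of the genes tested) and 118 were higher (0.788%). The sign of the fold change was even over all genes, with 50.2% negative and 49.8% positive. In 612 genes (4.09%) every 8.4/aFGF library lay above every 7.4/aFGF library, and in 630 genes (4.21%) every one lay below. With the replicate number as a block, 860 genes had an unadjusted p under 0.05, 379 higher (2.53%) and 481 lower (3.21%), and edgeR again called 0. With single libraries left out 78 to 240 genes were higher and 163 to 523 lower at that threshold, of 15173 to 15245 tested. Without 8.4/aFGF replicate 2 and 7.4/aFGF replicate 3 together 278 were higher and 420 lower, of 15009 tested.

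DESeq2 on the same counts called 11 genes, 0.0652% of the 16864 genes to which it gave an adjusted p: 1 was higher in 8.4/aFGF, the hair keratin gene Krt83, and 10 were lower. Of those 10, 8 belonged to the interferon gene lists described next, among them the GTPase genes Gbp2, Gbp5, Gbp6, Tgtp1, Tgtp2, Ifi47 and F830016B08Rik. The remaining genes were Gm4841, a further predicted GTPase gene of the interferon-inducible kind, and Naip6, a cytosolic sensor of bacterial proteins. These calls rested on which libraries were present. DESeq2 called 3 genes without 8.4/aFGF replicate 1, 4 without 7.4/aFGF replicate 1, 5 without 7.4/aFGF replicate 3 and 6 without 8.4/aFGF replicate 3, none of them among the 11, whereas it called 69 genes without 8.4/aFGF replicate 2 and 101 without 7.4/aFGF replicate 2, the 11 among them in each case. The direction of all 11 was kept in every one of these fits, and without 8.4/aFGF replicate 2 and 7.4/aFGF replicate 3 together DESeq2 called 161 genes, 8 of the 11 among them.

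**Figure D2:**
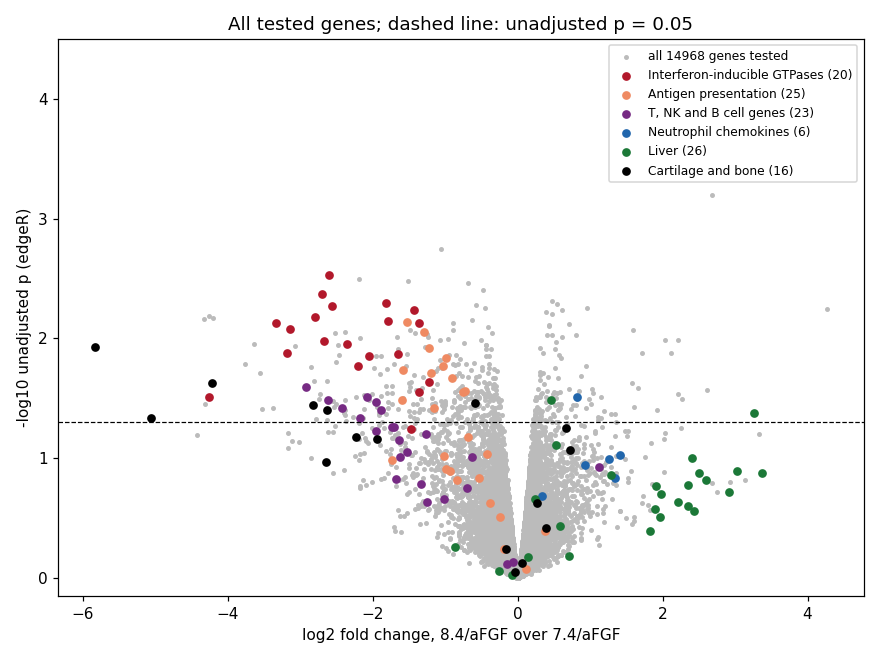
Each point is 1 of the 14968 genes tested, placed by its log2 fold change of 8.4/aFGF over 7.4/aFGF (horizontal axis) and by -log10 of its unadjusted edgeR p-value (vertical axis), with a dashed line at 0.05; members of 6 gene lists are coloured. All 20 interferon-inducible GTPase genes lie left of 0 and 19 of them above the line, liver genes lie mostly to the right, and no gene reached an adjusted p under 0.05.

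The interferon-inducible GTPases held the lowest list median of all 39 gene lists examined. These proteins coat the vacuoles of intracellular pathogens and are induced above all by interferon gamma. All 20 members tested were lower in 8.4/aFGF than in 7.4/aFGF, 19 of them at an unadjusted p under 0.05 (against 2.22% of all genes) and 13 without overlap between the groups (against 4.21%), and their median log2 fold change was -2.28, against -0.0006 for all genes tested. None was called by edgeR. With the replicate block 16 had an unadjusted p under 0.05 (against 3.21% of all genes), and the median was -2.11. The count and the median held when libraries were left out: 15 to 20 members had an unadjusted p under 0.05 and the median stayed between -2.70 and -1.53, and without both libraries that carried tissue genes 18 members and -2.60 remained.

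Gbp2, the member with the highest level per length, stood at 70.5, 90.0 and 56.3 CPM in replicates 1 to 3 of 8.4/aFGF and at 582, 102 and 591 CPM in those of 7.4/aFGF. Its log2 fold change was -2.56 (SE 0.63, edgeR unadjusted p = 0.00541). Gbp5, which also promotes inflammasome assembly, was at 12.2, 18.8 and 8.30 CPM against 139, 24.7 and 90.0 CPM, a log2 fold change of -2.69 (SE 0.64). In each gene 7.4/aFGF replicates 1 and 3 were high, while replicate 2 stood only just above the 8.4/aFGF libraries. Ifi47, a GTPase of the Irg family, was at 32.0, 65.8 and 33.8 CPM against 238, 85.0 and 142 CPM (log2 fold change -1.82, SE 0.44). F830016B08Rik, another gene of that family, was at 4.26, 6.26 and 2.46 CPM against 37.1, 9.60 and 32.2 CPM (log2 fold change -2.61, SE 0.57). Gm12185 was lower as well, with 0.803 to 1.03 CPM against 1.23 to 8.52 CPM (log2 fold change -2.35, SE 0.68). Tgtp1 and Tgtp2 are near-identical copies whose reads may have been divided by the counting, and they are uncertain singly: Tgtp2 stood at 3.13 to 11.8 CPM against 15.3 to 81.7 CPM, and Tgtp1 at 1.79 to 2.55 CPM against 2.44 to 33.4 CPM.

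The same ranking of libraries ran through the list. 7.4/aFGF replicate 1 was the highest of the 6 libraries in 19 of the 20 genes, 7.4/aFGF replicate 2 was the lowest of its group in 19 and lay within or below the range of 8.4/aFGF in 7, and 8.4/aFGF replicate 2 was the highest of its own group in 19. The summed level of the list was 416, 745 and 342 CPM in 8.4/aFGF and 3228, 814 and 2025 CPM in 7.4/aFGF, against 759 to 2243 CPM in the 3 control wounds. It was 496.5 to 983 CPM in 7.4/bFGF and 360.0 to 708 CPM in 8.4/bFGF. So the 3 libraries of 8.4/aFGF lay below the lowest control wound and near the range of the bFGF gels, while 7.4/aFGF replicates 1 and 3 lay above every library of the bFGF gels at pH 7.4 and 8.4.

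**Figure D3:**
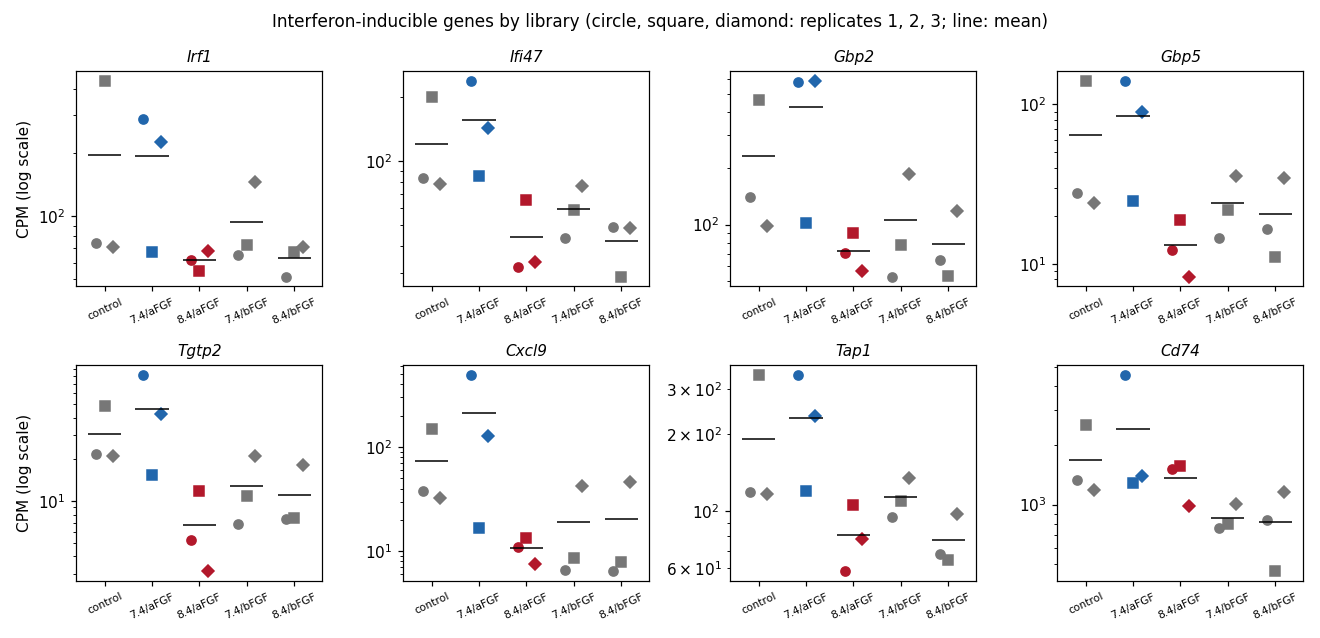
CPM (vertical axis, log scale) of 8 interferon-inducible genes in every library of 5 groups (circles, squares and diamonds for replicates 1, 2 and 3, bar for the group mean; blue 7.4/aFGF, red 8.4/aFGF, grey control and bFGF groups). In Gbp2 the 7.4/aFGF libraries stand at 582, 102 and 591 CPM and those of 8.4/aFGF between 56.3 and 90.0 CPM; replicate 2 of 7.4/aFGF lies next to the 8.4/aFGF libraries in most panels.

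Of the regulators of this response, Irf1, a transcription factor that interferon gamma induces directly, was at 61.8, 54.7 and 68.3 CPM against 288, 67.2 and 224 CPM, where replicate 2 of 7.4/aFGF lay inside the range of 8.4/aFGF (log2 fold change -1.65, SE 0.49). Stat2, a transcription factor of type I interferon signalling, was at 56.7 to 116 CPM against 120 to 193 CPM (log2 fold change -0.88, SE 0.33). The receptor kinase gene Jak1 overlapped between the groups, with 346 to 432 CPM against 345 to 484 CPM. In the whole list of 30 signalling and sensor genes, 25 had a negative fold change, 4 of them at an unadjusted p under 0.05 (against 2.22% of all genes) and 6 with the replicate block (against 3.21%), with a median log2 fold change of -0.30. This median was -0.11 without 7.4/aFGF replicate 1, where 13 genes had a positive and 17 a negative fold change, and -0.59 without both libraries that carried tissue genes, where 11 genes had an unadjusted p under 0.05. With single libraries left out 2 to 10 genes did, the fewest without 8.4/aFGF replicate 1 or 3 and the most without 8.4/aFGF replicate 2. 

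Effectors that type I interferons induce gave smaller differences. Of 39 antiviral effector genes, 38 had a negative fold change, 9 at an unadjusted p under 0.05 (against 2.22% of all genes), 13 with the replicate block (against 3.21%) and 7 without overlap (against 4.21%). The median log2 fold change was -0.67, and it ran from -0.32 without 7.4/aFGF replicate 1 to -1.06 without 8.4/aFGF replicate 2, with -1.27 without both libraries that carried tissue genes. Dtx3l, a ubiquitin ligase, was at 46.3, 71.2 and 49.0 CPM against 158, 73.7 and 118 CPM (log2 fold change -1.07, SE 0.30), and Parp14, an ADP-ribosyltransferase, was at 91.9 to 151 CPM against 176 to 313 CPM. Oas3, which senses double-stranded RNA, was at 62.2 to 77.8 CPM against 84.1 to 139 CPM (log2 fold change -0.65, SE 0.21). Rnf213, a large antimicrobial ubiquitin ligase, was at 193, 359 and 172 CPM against 803, 478 and 367 CPM, without overlap (log2 fold change -1.19, SE 0.39). The abundant members Ifitm3 and Ifi27l2a overlapped between the groups, with log2 fold changes of -0.19 (SE 0.21) and 0.09 (SE 0.32). The number of effectors with an unadjusted p under 0.05 moved from 1 without 8.4/aFGF replicate 3, 2 without 8.4/aFGF replicate 1 and 3 without 7.4/aFGF replicate 1 to 16 without 7.4/aFGF replicate 3 and 31 without 8.4/aFGF replicate 2, and it was 36 without 8.4/aFGF replicate 2 and 7.4/aFGF replicate 3 together.

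Chemokines that interferon gamma induces followed the GTPases. Cxcl9 was at 11.0, 13.4 and 7.59 CPM in 8.4/aFGF and at 493, 16.8 and 129 CPM in 7.4/aFGF (log2 fold change -4.32, SE 1.12, edgeR unadjusted p = 0.00694), and the groups did not overlap although replicate 2 of 7.4/aFGF came close. Without 7.4/aFGF replicate 1 its log2 fold change was -2.77. Cxcl10 stood at 4.77, 17.8 and 6.48 CPM against 102, 19.5 and 39.1 CPM. Ccl5, a chemokine made by activated T cells, was at 6.96 to 10.2 CPM against 142, 9.35 and 34.1 CPM, with replicate 2 of 7.4/aFGF inside the range of the other group. Il12b, a subunit of the cytokines IL-12 and IL-23, was at 0.216 to 0.416 CPM against 1.04 to 1.93 CPM, again without overlap (log2 fold change -2.20, SE 0.49). Tnfsf10, which encodes the death ligand TRAIL, was at 6.50 to 11.3 CPM against 12.5 to 30.5 CPM. Tnfsf14 and Il15, by contrast, overlapped between the groups with a log2 fold change of -0.13 in each (SE 0.35 and 0.20). The level of Tnfsf14 was 31.8 to 64.9 CPM against 31.0 to 64.6 CPM and that of Il15 was 11.2 to 17.6 CPM against 13.5 to 16.4 CPM.

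In the antigen presentation list, 23 of 25 genes had a negative fold change, 12 at an unadjusted p under 0.05 (against 2.22% of all genes) and 11 without overlap (against 4.21%), with a median log2 fold change of -0.94. Tap1, which pumps peptides into the endoplasmic reticulum for MHC class I, was at 58.5, 106 and 77.8 CPM against 341, 120 and 236 CPM (log2 fold change -1.53, SE 0.40). Nlrc5, the transactivator of MHC class I genes, was at 32.6 to 53.7 CPM against 63.9 to 149 CPM (log2 fold change -1.29, SE 0.35). The class I light chain gene B2m was at 1670, 2224 and 1407 CPM against 3270, 1826 and 1786 CPM and overlapped, as did the class II invariant chain gene Cd74, at 1510, 1569 and 987 CPM against 4543, 1283 and 1393 CPM. Cd74 was high only in replicate 1 of 7.4/aFGF, and its log2 fold change of -0.83 (SE 0.51) became 0.02 without that library. The median of the list was -0.42 without 7.4/aFGF replicate 1, and 6 genes then had an unadjusted p under 0.05. Without 8.4/aFGF replicate 1 or replicate 3 the number was 4, and with the replicate block it was 8 (against 3.21%). Without both libraries that carried tissue genes it was 11, with a median of -1.27.

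The list of T, NK and B cell genes rested largely on a single library. Of 23 genes, 22 had a negative fold change, 7 at an unadjusted p under 0.05 (against 2.22% of all genes) and 7 without overlap (against 4.21%), with a median log2 fold change of -1.63, and 20 of the 23 were highest of all 21 libraries in 7.4/aFGF replicate 1. Cd28, the T cell costimulatory receptor, was at 0.577, 1.05 and 0.865 CPM in 8.4/aFGF and at 15.7, 1.26 and 1.87 CPM in 7.4/aFGF (log2 fold change -2.92, SE 1.02). Cd3e, a chain of the T cell receptor complex, was at 0.608 to 0.865 CPM against 11.7, 1.40 and 1.04 CPM. Klrk1, an activating receptor of NK cells, was at 4.04 to 7.87 CPM against 51.6, 9.32 and 8.41 CPM. In each of these genes replicate 1 of 7.4/aFGF was far above the rest and the other 5 libraries lay close together. Without that library 0 of the 23 had an unadjusted p under 0.05 by edgeR and the median was -0.34, and the number was also 0 without 8.4/aFGF replicate 1, 1 without 8.4/aFGF replicate 3 and 2 with the replicate block (against 3.21%). It was 12 without 7.4/aFGF replicate 2 and 14 without 7.4/aFGF replicate 3. Without both libraries that carried tissue genes it was 9, with a median of -2.27. The summed level of the list was 305, 388 and 306 CPM in 8.4/aFGF and 837, 433 and 300 CPM in 7.4/aFGF. In 7.4/aFGF replicate 3 the GTPase genes summed to 2025 CPM. The lymphocyte sum of that library lay close to those of 8.4/aFGF replicates 1 and 3. There, the 5 lymphocyte genes with a median under 1 CPM summed to 4.125 CPM in 7.4/aFGF replicate 3. They summed to 22.4 and 3.67 CPM in 7.4/aFGF replicates 1 and 2, and to 1.89 to 3.82 CPM in 8.4/aFGF. What part the lymphocytes had in the interferon genes was not tested.

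Among the genes higher in 8.4/aFGF, the 10 with the smallest p were Krt83, Spire1, Serpina3n, Kcne4, Ttc36, Orm1, Pdpn, Klhdc4, Wfdc17 and Ftl1. All 10 had no overlap between the groups (against 4.09% of all genes). They were picked by their p in the same libraries, so this separation adds no support. Krt83 was at 1.52, 1.25 and 2.59 CPM against 0.280, 0.247 and 0.302 CPM (log2 fold change 2.68, SE 0.44, edgeR unadjusted p = 0.000637), and it was at most 4.16 CPM in the bFGF groups of pH 7.4 and 8.4. Ttc36 was high mainly in the library with liver genes, at 1.61 CPM, with 0.365 and 0.351 CPM in the other 2 libraries of 8.4/aFGF and 0 to 0.0560 CPM in 7.4/aFGF. The remaining genes were at moderate or high levels. Pdpn, the membrane glycoprotein podoplanin of lymphatic vessels, fibroblasts and migrating keratinocytes, was at 334, 324 and 323 CPM against 242, 267 and 235 CPM (log2 fold change 0.40, SE 0.10). Wfdc17, a secreted protease inhibitor of macrophages, was at 655, 578 and 748 CPM against 306, 447 and 456 CPM (log2 fold change 0.71, SE 0.19). Kcne4, a potassium channel subunit, was at 38.3, 30.6 and 20.5 CPM against 15.2, 17.2 and 13.5 CPM, and Spire1, an actin nucleator, at 55.5 to 66.0 CPM against 40.1 to 46.5 CPM. Klhdc4 stood at 39.8 to 50.4 CPM against 32.2 to 34.2 CPM.

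Of the same 10 genes, Serpina3n, an inhibitor of neutrophil and mast cell proteases, was at 1588, 1589 and 1360 CPM against 920, 1137 and 1069 CPM (log2 fold change 0.54, SE 0.13). Orm1, an acute phase protein, was at 22.2 to 26.2 CPM against 13.5 to 18.0 CPM (log2 fold change 0.60, SE 0.15). Hmox1, the enzyme that degrades heme, was not one of the 10 and was taken up after its values were seen. It was at 2428, 2098 and 1557 CPM against 1412, 1139 and 911 CPM, a log2 fold change of 0.81 (SE 0.22). In these 3 genes the groups were separate, with the lowest 8.4/aFGF library above the highest 7.4/aFGF library. Ftl1, the ferritin light chain that stores iron, was at 4465, 3849 and 4299 CPM against 2987, 3081 and 3268 CPM (log2 fold change 0.43, SE 0.12). Its partner Fth1 overlapped between the groups, at 6435, 5190 and 7382 CPM against 4990, 4100 and 6560 CPM. The controls had a mean of 613 CPM of Hmox1 and 3588 CPM of Ftl1.

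**Figure D4:**
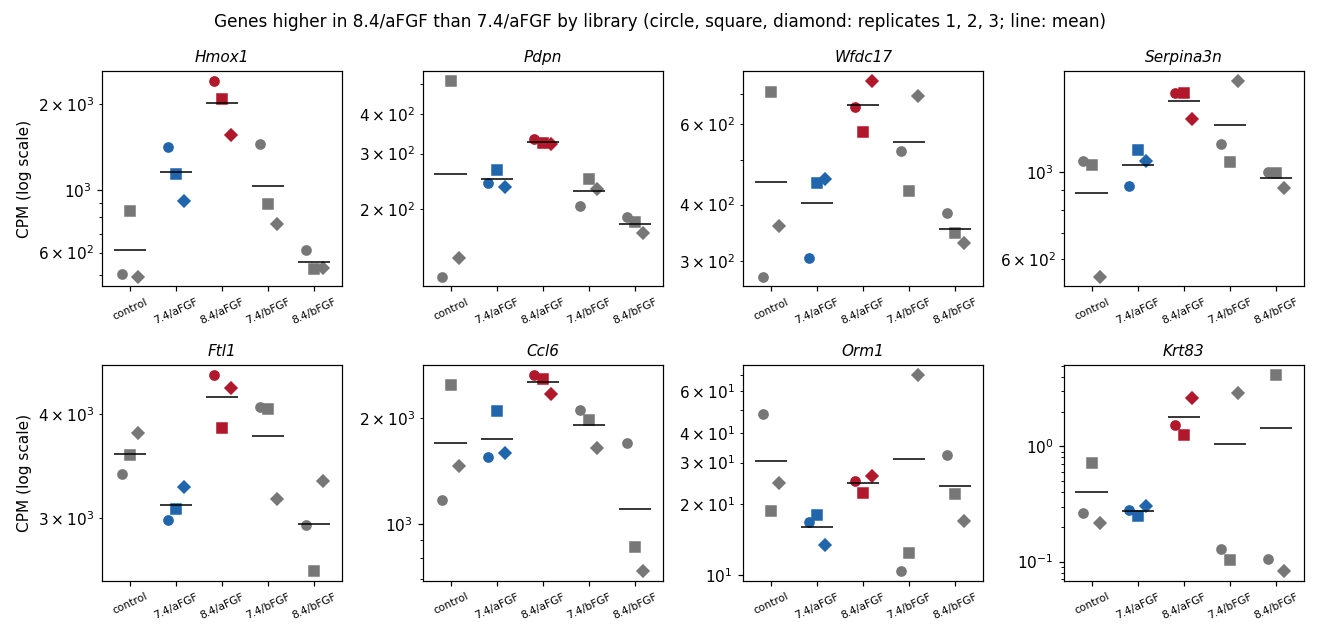
CPM (vertical axis, log scale) of 8 genes with a positive fold change in every library of 5 groups (circles, squares and diamonds for replicates 1, 2 and 3, bar for the group mean; blue 7.4/aFGF, red 8.4/aFGF, grey control and bFGF groups). The 3 libraries of 8.4/aFGF lie above the 3 of 7.4/aFGF in all 8 panels, and in Hmox1 they also lie above every control and bFGF library shown.

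All 6 genes of the list of neutrophil chemokines, most of which bind the receptor CXCR2, had a positive fold change. Their median log2 fold change was 1.09, and 1 of them had an unadjusted p under 0.05 (against 0.788% of all genes), which became 4 with the replicate block (against 2.53%). Without 8.4/aFGF replicate 1 the median was 0.53 with 0 genes at an unadjusted p under 0.05 by edgeR, without 8.4/aFGF replicate 3 the number was also 0, without 7.4/aFGF replicate 3 it was 2, without 8.4/aFGF replicate 2 it was 4, and it was 3 without both libraries that carried tissue genes. Pf4, a platelet and macrophage chemokine, was at 431, 405 and 514 CPM against 146, 336 and 284 CPM without overlap (log2 fold change 0.82, SE 0.30). Cxcl1 was at 562, 122 and 72.3 CPM against 163, 85.2 and 49.1 CPM, so that only replicate 1 of 8.4/aFGF stood above the other group. Its log2 fold change of 1.34 (SE 0.82) was -0.03 without that library. Cxcl2 stood at 980, 264 and 468 CPM against 359, 171 and 367 CPM, Cxcl3 at 485, 79.4 and 365 CPM against 130, 67.8 and 192 CPM, and Ppbp at 36.3, 11.2 and 56.8 CPM against 4.71, 11.1 and 23.4 CPM. Within each replicate number the 8.4/aFGF library was above its 7.4/aFGF partner in these genes, while the groups overlapped. Neutrophil markers were less even: 18 of 26 had a positive fold change, and the median log2 fold change was 0.25. At an unadjusted p under 0.05, 1 was higher (against 0.788% of all genes), and 4 with the replicate block (against 2.53%). This list turned on single libraries. Without 8.4/aFGF replicate 1 there were 14 positive and 13 negative fold changes with a median of 0.04, while 11 genes were higher at an unadjusted p under 0.05 without 8.4/aFGF replicate 2, with a median of 0.45, and also 11 without both libraries that carried tissue genes, with 24 of 25 fold changes positive. Without 7.4/aFGF replicate 2 it was the other direction that held 3 genes at an unadjusted p under 0.05. S100a8, a calcium-binding alarmin of neutrophils, was at 3118, 1549 and 3726 CPM against 1402, 1595 and 2457 CPM (log2 fold change 0.62, SE 0.36), which overlapped.

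Among monocyte and lymphocyte chemokines outside the interferon response, Ccl6, a macrophage chemokine, was at 2652, 2576 and 2340 CPM against 1546, 2091 and 1591 CPM (log2 fold change 0.53, SE 0.15), and Ccl20, which attracts Langerhans cell precursors and Th17 cells, at 1.03 to 2.00 CPM against 0.364 to 0.550 CPM (log2 fold change 1.59, SE 0.43). Each was separate between the groups. Over the list of 23, 14 had a positive and 9 a negative fold change. At an unadjusted p under 0.05 there were 3 higher and 4 lower (against 0.788% and 2.22% of all genes). With the replicate block there were 7 and 2 (against 2.53% and 3.21%). The median log2 fold change of 0.27 was 0.04 without 7.4/aFGF replicate 1, -0.03 without 7.4/aFGF replicate 3, -0.04 without 8.4/aFGF replicate 2 and -0.12 without both, with 10 positive and 13 negative fold changes. Macrophage genes were mixed. Lyz2, a lysozyme gene of all macrophages, was at 4766, 4851 and 3043 CPM against 5104, 3835 and 3795 CPM and Adgre1, which encodes F4/80, at 201 to 348 CPM against 230 to 382 CPM, so both overlapped. Of 19 genes of alternatively activated (M2) macrophages, 16 had a positive fold change, and the list median was 0.26. By edgeR 0 had an unadjusted p under 0.05, which became 3 higher with the replicate block (against 2.53% of all genes). The median ran from 0.06 without 7.4/aFGF replicate 1 to 0.68 without 7.4/aFGF replicate 2, where 8 genes were higher at an unadjusted p under 0.05, and it was -0.05 without the 2 libraries that carried tissue genes. Mrc1, the mannose receptor, was at 1247, 1262 and 736 CPM against 682, 1372 and 497 CPM (log2 fold change 0.35, SE 0.40), and Arg1, arginase 1, spread from 158 to 1377 CPM in 8.4/aFGF and from 166 to 1180 CPM in 7.4/aFGF. Of 16 genes of classically activated (M1) macrophages, 10 had a negative fold change, 2 at an unadjusted p under 0.05 (against 2.22% of all genes). This number was 4 without 8.4/aFGF replicate 2 or without both libraries that carried tissue genes, and 5 without 7.4/aFGF replicate 2. It was 1 without 7.4/aFGF replicate 1, without 7.4/aFGF replicate 3 or without 8.4/aFGF replicate 1, and 2 with the replicate block (against 3.21%). The M1 list median of -0.28 ran from -0.49 without 7.4/aFGF replicate 2 to -0.08 without 7.4/aFGF replicate 1. Ccr7, a homing receptor, was at 14.6 to 16.6 CPM against 16.1 to 33.1 CPM (log2 fold change -0.52, SE 0.28).

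No gene of the FGF pathway was called by edgeR, against 0% of all genes tested. Among 11 ligand genes, 5 had a positive and 6 a negative fold change. Without both libraries that carried tissue genes 4 were positive and 6 negative, and the median went from -0.01 to -0.28. The mouse's own Fgf1 was at 6.54 to 11.9 CPM against 6.44 to 11.7 CPM (log2 fold change -0.01, SE 0.31), and Fgf2 at 5.44 to 7.26 CPM against 4.15 to 11.3 CPM (log2 fold change -0.19, SE 0.39). Fgf7, the keratinocyte growth factor made by fibroblasts, was at 74.6, 73.9 and 60.4 CPM against 35.3, 60.5 and 43.8 CPM (log2 fold change 0.58, SE 0.21, edgeR unadjusted p = 0.0282), with 8.4/aFGF replicate 3 just below the highest 7.4/aFGF library. Fgf5, an inhibitor of hair growth, lay near the floor, at 0.0554 to 0.162 CPM against 0.302 to 0.476 CPM. Of 16 receptor and co-factor genes, 12 had a negative fold change with a median of -0.10 and 0 at an unadjusted p under 0.05 by edgeR. Fgfr1, the main receptor of fibroblasts, was at 258, 240 and 265 CPM against 210, 237 and 257 CPM, and Fgfr2, the receptor of keratinocytes, at 10.8 to 14.3 CPM against 11.4 to 21.4 CPM. Feedback targets of the ERK cascade, which are induced when FGF receptors are active, had a median log2 fold change of 0.17 over 20 genes. By edgeR 0 had an unadjusted p under 0.05, and 3 were higher with the replicate block (against 2.53% of all genes). Without 8.4/aFGF replicate 1 the median was -0.07, and without both libraries that carried tissue genes it was 0.13. The ERK phosphatase gene Dusp6 was at 124, 91.1 and 88.4 CPM against 104, 103 and 99.1 CPM (log2 fold change -0.01, SE 0.15), and the transcription factor gene Etv5 was at 22.6, 26.9 and 21.9 CPM against 21.99, 26.95 and 23.4 CPM (log2 fold change -0.02, SE 0.14). Spry4, a feedback inhibitor, was at 15.2, 9.17 and 9.78 CPM against 7.79, 9.60 and 5.14 CPM (log2 fold change 0.60, SE 0.30).

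Immediate early genes, which are switched on within minutes of a stimulus or of tissue handling, were highest in a single library. Of 22 genes, 19 had a positive fold change and 19 were highest of the 6 in 8.4/aFGF replicate 1, with a summed level of 7646, 3732 and 3428 CPM in 8.4/aFGF and 4017, 3403 and 3325 CPM in 7.4/aFGF. Egr1 stood at 372, 99.8 and 92.6 CPM against 147, 105 and 85.5 CPM, and its log2 fold change of 0.74 (SE 0.56) was -0.22 without 8.4/aFGF replicate 1. Fos was at 515, 231 and 225 CPM against 212, 218 and 294 CPM. Apold1, an endothelial early response gene, was at 65.1, 22.5 and 12.7 CPM against 18.1, 17.3 and 11.3 CPM (log2 fold change 1.10, SE 0.58), and its log2 fold change was 0.18 without 8.4/aFGF replicate 1. The median of the list was 0.38 with all libraries and -0.03 without 8.4/aFGF replicate 1.

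Genes by which cells sense or move protons were called by edgeR in 0 cases, against 0% of all genes tested. Of 11 proton-sensing receptor and channel genes, 6 had a positive and 5 a negative fold change, 0 at an unadjusted p under 0.05 by edgeR. Gpr65, the proton-sensing receptor of leukocytes, was at 46.6, 28.3 and 15.7 CPM against 39.8, 25.7 and 19.5 CPM (log2 fold change 0.09, SE 0.43). Gpr4, the endothelial member, was at 8.31 to 10.3 CPM against 6.52 to 9.97 CPM. Both overlapped between the groups. Of 41 acid-base transporter and carbonic anhydrase genes, 20 had a positive and 21 a negative fold change, with a median of -0.02. The 3 with an unadjusted p under 0.05 were all lower in 8.4/aFGF (against 2.22% of all genes). With the replicate block 4 were lower (against 3.21%), and without both libraries that carried tissue genes 1 was higher and 1 lower. Car9, the hypoxia-inducible carbonic anhydrase that acidifies the outside of cells, was at 1.67, 1.66 and 2.51 CPM against 3.58, 2.82 and 3.96 CPM (log2 fold change -0.83, SE 0.30). Slc26a2, a sulfate and anion exchanger, was at 16.2 to 16.6 CPM against 18.6 to 22.6 CPM (log2 fold change -0.34, SE 0.13), and Hvcn1, the voltage-gated proton channel of phagocytes and B cells, at 17.8 to 28.4 CPM against 25.2 to 44.8 CPM with overlap.

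Most proliferation genes had a small negative fold change. Of 30 cell cycle and DNA replication genes, 25 had a negative fold change with a median of -0.23, 3 at an unadjusted p under 0.05 (against 2.22% of all genes) and 10 with the replicate block (against 3.21%), and 18 were lower in 8.4/aFGF within all 3 replicate numbers. Top2a, the topoisomerase of dividing cells, was at 52.8, 57.4 and 80.4 CPM against 84.2, 82.8 and 108 CPM (log2 fold change -0.53, SE 0.19). Mki67, the gene of the proliferation marker Ki-67, was at 58.5, 58.3 and 92.4 CPM against 101, 84.6 and 133 CPM (log2 fold change -0.61, SE 0.24), and Cenpf, a kinetochore protein, at 9.85 to 11.9 CPM against 12.4 to 20.8 CPM. Top2a and Cenpf did not overlap between the groups. Pcna, the replication clamp, was at 112.8 to 123.4 CPM against 109 to 115 CPM. The list depended on 7.4/aFGF replicate 3, the library with cartilage and bone marrow genes: without it 15 genes had a positive and 15 a negative fold change, 0 had an unadjusted p under 0.05 by edgeR and the median was 0.0005. Without 8.4/aFGF replicate 1 or replicate 2 the number was also 0, and without 8.4/aFGF replicate 3 it was 6. Without both libraries that carried tissue genes 22 genes had a positive and 8 a negative fold change.

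Genes of the structural programmes of the wound mostly overlapped between the groups. Of 19 collagen chain genes 10 had a positive and 9 a negative fold change, and Col1a1 and Col3a1, the main fibrillar collagens of granulation tissue, had log2 fold changes of 0.06 (SE 0.16) and 0.11 (SE 0.20). Acta2, the smooth muscle actin of myofibroblasts, was at 231, 214 and 182 CPM against 153, 189 and 192 CPM (log2 fold change 0.23, SE 0.14). Pecam1, the endothelial adhesion molecule CD31, was at 267, 241 and 256 CPM against 241, 214 and 264 CPM (log2 fold change 0.08, SE 0.12). Of 28 endothelial and angiogenesis genes, 23 had a positive fold change, with a median of 0.09. At an unadjusted p under 0.05, 1 was higher (against 0.788% of all genes), and 4 with the replicate block (against 2.53%). The median was 0.02 without 7.4/aFGF replicate 1 and 0.20 without both libraries that carried tissue genes, where 4 genes were higher at an unadjusted p under 0.05. With all libraries that gene was Tek, the angiopoietin receptor, at 24.2, 31.4 and 29.7 CPM against 17.9, 24.3 and 22.4 CPM (log2 fold change 0.40, SE 0.17), with a slight overlap. Krt14 of the basal epidermis was at 1881, 2213 and 2314 CPM against 1325, 2858 and 2243 CPM (log2 fold change -0.01, SE 0.27). Of 32 epidermal differentiation and barrier genes, 28 had a positive fold change, with a median of 0.29. It was 0.14 without 7.4/aFGF replicate 1, with 19 positive and 13 negative fold changes, and 0.12 without both libraries that carried tissue genes. Without 7.4/aFGF replicate 2 it was 0.54. At an unadjusted p under 0.05, 1 gene was higher with all libraries (against 0.788% of all genes). The number was 2 with the replicate block (against 2.53%) and 9 without 7.4/aFGF replicate 2. In this list Tgm1, the transglutaminase that cross-links the cornified envelope, was at 180.0, 97.0 and 148 CPM against 104, 90.4 and 87.7 CPM (log2 fold change 0.59, SE 0.23). Skeletal muscle genes varied widely within each group: Acta1, the actin of muscle fibres, ran from 1051 to 2968 CPM in 8.4/aFGF and from 778 to 4675 CPM in 7.4/aFGF, and Ckm, muscle creatine kinase, from 208 to 1004 CPM and from 141 to 1621 CPM.

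**Figure D5:**
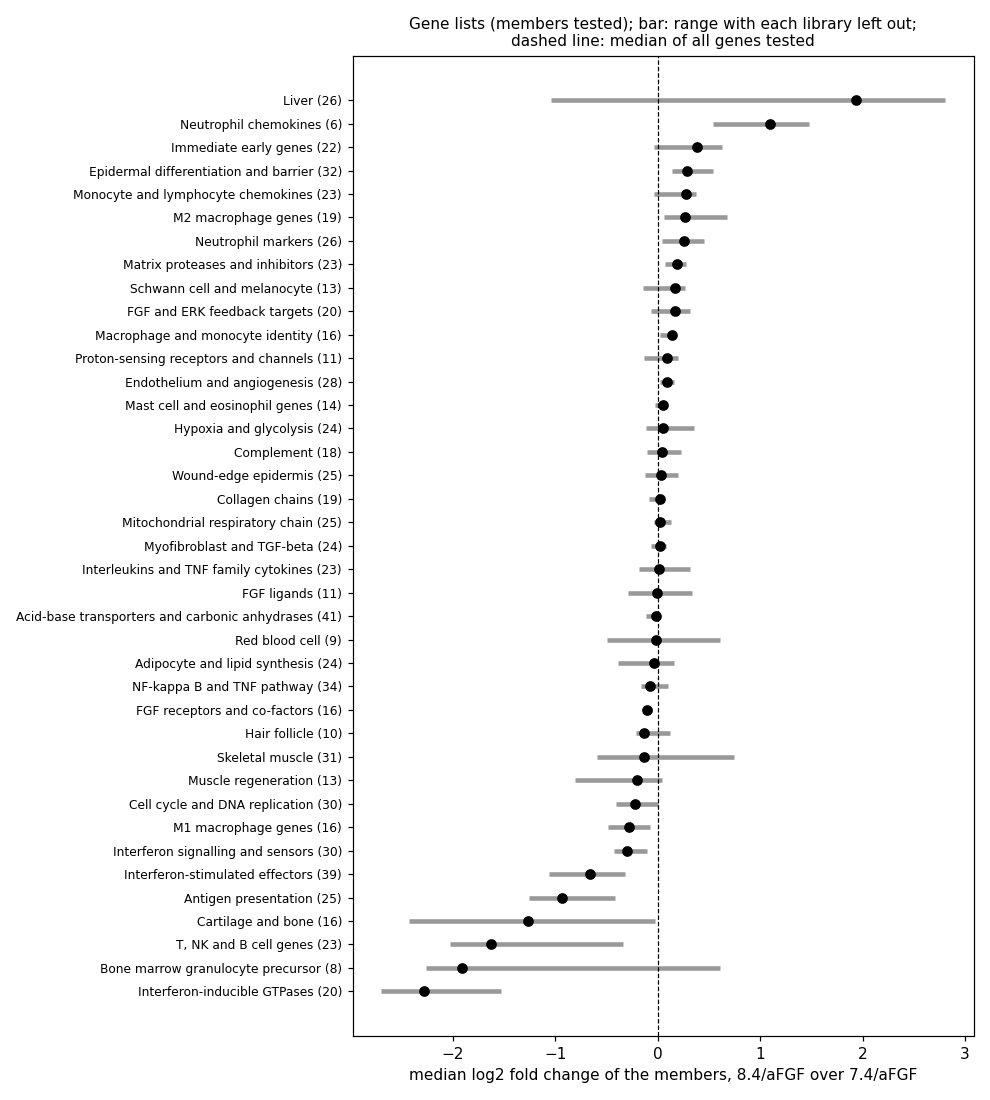
Median log2 fold change of 8.4/aFGF over 7.4/aFGF (horizontal axis) for the tested members of each of 39 gene lists (number of members in brackets); grey bars give the lowest and highest median with each of the 6 libraries left out in turn, and the dashed line is the median of all genes tested. The interferon-inducible GTPases lie lowest, at -2.28 with a bar from -2.70 to -1.53, while the bars of liver, bone marrow and skeletal muscle genes cross 0.

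Lists of other tissues gave large medians that turned on the libraries named above. The 26 liver genes tested had a median log2 fold change of 1.94. Without 8.4/aFGF replicate 2 it was -1.04, with 8 positive and 18 negative fold changes. Without both libraries that carried tissue genes it was -1.54, with 20 negative fold changes. In that fit 11 liver genes were lower at an unadjusted p under 0.05 by edgeR, against 420 of all 15009 genes tested. The 16 cartilage and bone genes had a median of -1.27, which was -0.03 without 7.4/aFGF replicate 3, and the 8 granulocyte precursor genes of bone marrow had -1.91, which was 0.61 without that library. With the replicate block 2 cartilage and bone genes were lower at an unadjusted p under 0.05 (against 3.21% of all genes) in place of 6. In the same fit 2 were higher (against 2.53%) in place of 0.

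Whether the alkaline gel differed from the neutral gel in another way with bFGF was asked by the interaction of pH and growth factor over 12 libraries. In 15502 genes edgeR called 0 interactions (smallest adjusted p 0.9934), and 734 genes had an unadjusted p under 0.05, 281 of them positive (1.81%) and 453 negative (2.92%). Of the GTPases, 11 of 20 were negative at an unadjusted p under 0.05 (against 2.92% of all genes), with a median difference of -1.61. Their median log2 fold change with bFGF was -0.40, 18 of 20 negative. The interaction holds the same aFGF libraries as the comparison above, so this is not a separate observation. Counts with libraries left out are not given for the lists in the interaction. Gbp2 was at 52.6 to 186 CPM in 7.4/bFGF and at 53.1 to 119 CPM in 8.4/bFGF, a log2 fold change of -0.41, and the interaction was -2.13 (edgeR unadjusted p = 0.036). For the antiviral effectors, 0 of 39 interactions were at an unadjusted p under 0.05 by edgeR, and their median log2 fold change with bFGF was -0.51. Among the proliferation genes all 30 had a positive fold change with bFGF, with a median of 0.27, and 8 of 30 had a negative interaction at an unadjusted p under 0.05. Mki67 is an example, with a log2 fold change of 0.49 with bFGF and -0.61 with aFGF (interaction -1.08, edgeR unadjusted p = 0.0101). With aFGF, 15 proliferation genes had a positive and 15 a negative fold change without 7.4/aFGF replicate 3. Without both libraries that carried tissue genes 22 were positive and 8 negative, and Mki67 was at -0.30. Hmox1 was lower in 8.4/bFGF, at 526 to 614 CPM, than in 7.4/bFGF, at 759 to 1448 CPM, the opposite of its order with aFGF (interaction 1.70, edgeR unadjusted p = 0.000776). Neutrophil chemokines had a median of -0.57 with bFGF, 5 of 6 negative, and 2 of 6 interactions were positive at an unadjusted p under 0.05. After adjustment edgeR called none of these interactions, whereas DESeq2 called that of Hmox1 (adjusted p = 0.0408).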

How the data were processed

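RNA of Day 4 wounds was sequenced from libraries made with a stranded mRNA kit. The authors deposited raw counts per gene and FPKM values (fragments scaled by gene length and library total) for each library; the submitters' processing notes name the build GRCm39, and the aligner, counter and annotation are not given in the sources used here. The FPKM values are the deposited counts divided by library total and gene length: over 13158 genes with at least 20 counts in every library the recovered length differed between libraries by at most 5.57e-06%. Each file belonged to 1 sample, and 0 columns of other series were present. Gene symbols were used as deposited, and 18669 of 18806 were found in RefSeq's table for GRCm38.p6, which served for names only.

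The test on the counts of the 6 libraries was the quasi-likelihood test of edgeR (version 4.0.16, R 4.3.3; TMM scaling, filterByExpr, Benjamini-Hochberg adjustment over all genes tested). The CPM values are TMM-scaled over all 21 libraries. Fold changes are log2 of 8.4/aFGF over 7.4/aFGF with their SE. The interaction was tested in the same way over the 12 libraries of pH 7.4 and 8.4. Alternatives were DESeq2 1.42.0, limma 3.58.1 on log2(FPKM + 1) and log2(FPKM + 0.1), other scalings and filters, a model of all 21 libraries, a block for the replicate number, and fits without libraries. The scripts were tested on simulated data. Replicates of a group differed by far more than counting noise (mean chi-square per gene at least 81.5). The floor of 3 counts covers counting error only, and PCR copies were not marked. The SE of a fold change comes from the edgeR fit and includes the spread between replicates.

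Same-numbered libraries deviated together from their group means (r over genes 0.245, 0.123 and 0.193 for numbers 1, 2 and 3, against -0.186 to -0.0139 for unlike numbers). On this they were taken as pairs, a reading that comes from the data, since the labels do not say what a number shares. Deviations from a group mean cancel out within the group. The values for unlike numbers therefore follow in part from those for same numbers and add no separate support. Whether the numbers mark true pairs was not tested. Blocked values stand beside many of the counts over lists that they move.

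The comparison and the gene lists were chosen with earlier results of these data known, so counts over lists are descriptions beside the same count over all genes, with no test of a list. Genes named were the 10 with the smallest p in each direction, those DESeq2 called, genes the study shows, the highest (by FPKM) and the smallest-p members of lists, genes high in 1 library alone and tissue markers; Adgre1, Ccl5, Cd3e, Cd74, Clock, Cry1, Cxcl1, Cxcl10, Cxcl3, Dbp, Dusp6, Etv5, Fgfr1, Fgfr2, Fos, Fth1, Gbp2b, Hmox1, Hvcn1, Jak1, Mki67, Nr1d2, Per1 and Stat2 were named after their values were seen. A gene that the rule takes is not reported here.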

Additional observations from a re-analysis of the deposited data

Results flagged for a closer look

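In 4 genes DESeq2 called a difference between the alkaline effect with aFGF and that with bFGF, which edgeR did not call (adjusted p = 0.9934 for each). Hmox1 was higher in 8.4/aFGF than in 7.4/aFGF and lower in 8.4/bFGF (526 to 614 CPM) than in 7.4/bFGF (759 to 1448 CPM), a DESeq2 log2 difference of 1.70 (adjusted p = 0.0408). Pdpn was at 323 to 334 CPM in 8.4/aFGF and 235 to 267 CPM in 7.4/aFGF, against 168 to 189 CPM in 8.4/bFGF and 204 to 249 CPM in 7.4/bFGF, a DESeq2 difference of 0.74 (adjusted p = 0.00525). Wfdc17 was at 330 to 383 CPM in 8.4/bFGF and 428 to 692 CPM in 7.4/bFGF, the reverse of its order with aFGF, a DESeq2 difference of 1.35 (adjusted p = 0.0408). In these 3 genes the groups of 3 libraries did not overlap within either growth factor. Gbp2b, an interferon-inducible GTPase gene, was called with a DESeq2 difference of -11.17 (adjusted p = 0.0430), but it stood at 23.4 CPM in 7.4/aFGF replicate 1, at 1.71 CPM in replicate 3, at 2.71 CPM in 8.4/bFGF replicate 3 and between 0 and 0.185 CPM in the other 9 libraries, so that the size of its difference has no meaning as a fold. Groups of 3 libraries are too small for a search for outlying samples.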

How the results depend on the processing

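edgeR called 0 genes under every alternative run with it (RLE scaling, no filter or a stricter filter, a robust dispersion, the model of 21 libraries, no fold threshold, and libraries left out), with a smallest adjusted p of 0.146 without 7.4/aFGF replicate 2. limma on FPKM values also called 0. DESeq2 called 11 genes (1 higher, 10 lower). With its outlier cutoff and its own filter switched off it called 19 (1 higher, 18 lower), of which 11 were those above and 5 had not passed the filter of edgeR. For the interaction DESeq2 called 4 genes. Its calls without single libraries, an alternative chosen after seeing the data, numbered 3, 4, 5, 6, 69 and 101, and 161 without 8.4/aFGF replicate 2 and 7.4/aFGF replicate 3 together. The cause was not tested. With the replicate block edgeR called 0 genes and 0 interactions. It moved counts at an unadjusted p, many of which are given with the results. The number of genes at an unadjusted p under 0.05 by edgeR was 450, ran from 241 without 8.4/aFGF replicate 1 to 763 without 7.4/aFGF replicate 2, and was 698 without both libraries that carried tissue genes. Genes with groups that do not overlap, a count added after seeing the data, numbered 1242 with all libraries and 2074 to 3065 with 1 left out, since fewer samples overlap less often by construction.

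Of the 104 tested genes named, 80 had a log2 fold change beyond its SE, and the others were given no direction. The 18 alternatives gave 1848 values over all the named genes. Among the 80 genes, 12 values in 9 genes changed sign, each where libraries were left out, and the cause was not tested. Sign changes in the other 24 genes occurred as well and were not counted. Acta1 ran from -0.51 to 0.96 with single libraries left out, Arg1 from -0.87 to 1.43 and Fgf2 from -0.46 to 0.33. The replicate block also moved Acta1, from -0.10 to 0.27. With single libraries left out the log2 fold change ran from -1.37 to 3.25 for Alb, from -2.10 to 4.25 for Ttr, from -5.63 to 0.32 for Acan, from -5.01 to 1.15 for Mpo, from -1.13 to 0.0181 for Cd74, from -0.56 to 0.0697 for Ptprc, from -0.0290 to 1.91 for Cxcl1, from -0.22 to 1.08 for Egr1 and from -0.0810 to 0.64 for Fos. Without both libraries that carried tissue genes Alb was at -1.86, Ttr at -2.66 and Acan at 0.86. Cell cycle and DNA replication genes lower at an unadjusted p under 0.05 by edgeR numbered 0 to 6 with single libraries left out, and liver genes higher 0 to 5. Without both libraries these numbers were 0 and 0, while 11 liver genes were lower at that threshold, and 1 lower cartilage and bone gene was left. A count of 0 allowed up to 0.0838 CPM in the shallowest of the 6 libraries, so levels near it, such as that of Fgf5 in 8.4/aFGF, are known only roughly at this depth.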

Other observations

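Some genes with small p lie outside the gene lists, and these were taken up after their values were seen. Nr1d1, the circadian repressor REV-ERB alpha, was at 30.7, 29.3 and 37.0 CPM in 8.4/aFGF and at 61.4, 46.3 and 48.2 CPM in 7.4/aFGF (log2 fold change -0.69, SE 0.15, edgeR unadjusted p = 0.00343). Its relative Nr1d2 was at 42.2 to 47.5 CPM against 52.1 to 57.8 CPM, and Cry1, a repressor of the clock that REV-ERB proteins hold down, was at 26.3 to 28.5 CPM against 21.4 to 22.7 CPM. These 3 genes were separate between the groups, while Per1 (99.0 to 205 CPM against 77.5 to 117 CPM), Dbp (14.3 to 19.1 CPM against 16.6 to 25.7 CPM) and Clock (56.4 to 61.4 CPM against 53.9 to 62.6 CPM) overlapped. The labels do not give the hour of collection. Arel1, an E3 ubiquitin ligase, was at 38.8 to 45.0 CPM against 53.3 to 62.4 CPM and Lrba, which keeps CTLA-4 from degradation, at 14.6 to 18.4 CPM against 22.7 to 27.2 CPM. Naip6 was at 5.68, 3.93 and 5.57 CPM against 11.9, 9.62 and 10.2 CPM (log2 fold change -1.06, SE 0.21), the smallest edgeR p among the lower genes at 0.0018.

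Of 13 muscle regeneration genes tested, 10 had a negative fold change. Without overlap there were 2 lower (against 4.21% of all genes), both myosins of newly formed muscle fibres. At an unadjusted p under 0.05, 1 was lower (against 2.22%), and 3 with the replicate block (against 3.21%). The median was -0.21, 0.04 without 7.4/aFGF replicate 3 and -0.38 without both libraries that carried tissue genes. Acta1 and Ckm of adult muscle overlapped between the groups. Myh3, embryonic myosin, was at 6.26, 25.2 and 6.97 CPM in 8.4/aFGF and at 25.7, 31.0 and 28.4 CPM in 7.4/aFGF (log2 fold change -1.15, edgeR unadjusted p = 0.071). Myh8, neonatal myosin, was at 5.41, 21.2 and 6.97 CPM against 33.1, 26.5 and 23.7 CPM (log2 fold change -1.31, SE 0.51, edgeR unadjusted p = 0.0389). In each, 8.4/aFGF replicate 2 lay close to the 7.4/aFGF libraries. Epx, the eosinophil peroxidase gene, had 5.53 CPM in 7.4/aFGF replicate 3 and 0 counts in the other 5 libraries, and it did not pass the filter on low counts.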
